A study of Mus musculus with 3 samples.

Results

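The monocytes of total mouse bone marrow were examined as 332 of the 4290 cells kept in the total bone marrow (TBM) library, a share of 7.74% (95% exact Clopper-Pearson interval 6.96 to 8.58%), and of the 8824 cells kept in the whole series. A cell was kept with at least 200 genes detected and at most 10% of its unique molecular identifiers (UMIs, 1 per captured transcript molecule) from mitochondrially encoded genes. A kept TBM cell was called a monocyte when it held at least 4 UMIs of Fn1, Ccr2 and Csf1r together, under 10% of its UMIs from S100a8 and S100a9, fewer than 10 UMIs of Elane, fewer than 2 of Siglech and 0 of Cd79a. The members were thus selected on measured counts of 8 genes in the same cells, so every difference between these cells and the rest is given as a description, without a test.

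The series holds 3 droplet libraries of mouse marrow from several bones: TBM, LK (lineage-negative cells sorted for Kit) and LSK (lineage-negative cells sorted for Sca-1 and Kit), with 1 library per group. The labels state 3984 TBM, 3441 LK and 1070 LSK cells, against 4317, 3560 and 1091 deposited barcodes. The antibodies listed for the lineage step include CD11b and Ly-6C, which monocytes carry on their surface, and whether the TBM cells went through that step is not stated. The sources used here do not give strain, sex, age, number of mice or treatment, and with 1 library a group the intervals below cover counting error only and no p-value can be given.

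Monocytes form in the marrow from granulocyte-monocyte and monocyte-dendritic cell progenitors and need signalling through the receptor encoded by Csf1r. Classical mouse monocytes carry high Ly-6C and leave the marrow through the chemokine receptor encoded by Ccr2. Non-classical monocytes carry low Ly-6C, depend on the nuclear receptor encoded by Nr4a1 and patrol the vessel wall, and in other tissues monocytes give rise to macrophages and to cells that resemble dendritic cells.

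Median depth was 5668 UMIs and 1923 detected genes in the monocytes, against 3037 UMIs and 992 genes in the other 3958 TBM cells, and their summed UMIs came to 2208850 and 20313204. Single monocytes ranged from 1579 to 20026 UMIs. Except for S100a8 and S100a9, the rule set limits on UMI counts that were not thinned, so depth entered the choice of members. Levels are given as CPM (UMIs of a gene per 1e6 summed UMIs of a group) unless a value per cell is named. A total of 26 barcodes were shared by TBM and LK, 6 by TBM and LSK and 6 by LK and LSK, and 3 of the monocyte barcodes also occurred in LK or LSK. Scrublet, a doublet caller, marked 73 TBM cells (1.70%), of which 4 were monocytes, and none was removed.

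Of the genes that the rule required, Ccr2 was at 991 CPM in monocytes and 49.5 CPM in other TBM cells. Fn1, which encodes fibronectin, was at 595 CPM in monocytes and 21.0 CPM in other TBM cells. Csf1r was at 247 CPM in monocytes and 20.4 CPM in other TBM cells. All 3 genes were detected in 205 monocytes, 2 of the 3 in 106 and 1 of the 3 in 21. The genes that the rule kept low differed the other way by construction: S100a8 was at 2129 CPM in monocytes and 79254 CPM in other TBM cells, and Elane was at 101 CPM in monocytes and 1418 CPM in other TBM cells.

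F13a1, which encodes the A subunit of coagulation factor XIII and was the one marker gene that the rule did not count, was found in 277 of the 332 monocytes, with a median of 3 and a maximum of 26 UMIs per cell. It reached 617 CPM in monocytes (584 to 650.2) and 46.6 CPM in other TBM cells, a log2 ratio of 3.73 (95% interval 3.61 to 3.85). Of the 332 cells, 188 held a UMI of all 4 markers and 288 of at least 3 of the 4. Each cell was thinned to 2000 UMIs, and shallower cells were left out (3 monocytes and 1288 other TBM cells). F13a1 was then present in 62.9% of monocytes (57.4 to 68.2%) and in 3.56% of other TBM cells. Among the other TBM cells, 374 had at least 10% of their UMIs from globin genes, 0 UMIs of Cd79a and under 10% from S100a8 and S100a9. In this erythroid group of 7186 median UMIs, which should lack F13a1, the thinned share was 0.269%. It was higher, 5.48% (4.01 to 7.29%), in the TBM cells with a UMI of Cd79a. Those cells include the monocyte-like cells, described below, that failed the rule only on Cd79a.

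The threshold did not fall in a clear gap. Just inside it, the 15 cells with 4 UMIs of the counted genes had 309 CPM of F13a1, 972 CPM of Ms4a6c and 24936 CPM of Lyz2. Just outside it, the 18 cells with 3 UMIs that met the other conditions had 85.1 CPM of F13a1, 794 CPM of Ms4a6c and 15190 CPM of Lyz2. Most members lay far from the threshold, since 236 of them held 9 UMIs or more.

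**Figure D1:**
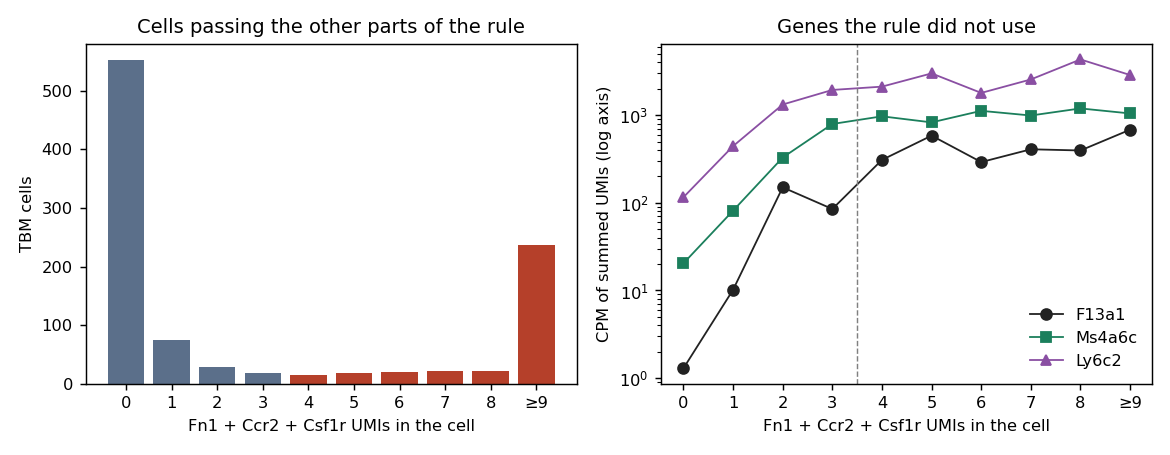
Left, number of TBM cells at each summed UMI count of Fn1, Ccr2 and Csf1r among cells that met all other conditions of the rule (red, monocytes; blue, cells below the minimum of 4). Right, CPM of summed UMIs of F13a1, Ms4a6c and Ly6c2 in the same cells on a log axis, with the minimum as a dashed line; F13a1 was at 309 CPM in the cells with 4 UMIs and 85.1 CPM in those with 3.

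The other TBM cells were not free of monocyte-like cells. A single failed condition, a UMI of Cd79a, kept out 52 cells, 43 of them with 1 such UMI. Those 43 cells had 600.2 CPM of F13a1 and 27384 CPM of Lyz2, against 617 and 28302 CPM in the 332 monocytes. A further 44 cells failed only on Elane, with a median of 17134 UMIs, 477 CPM of F13a1 and 2558 CPM of Mpo, a granule gene of progenitors that was at 54.8 CPM in the monocytes.

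A few members carried transcripts of other cells. At least 5 UMIs of natural killer cell genes were found in 3 members and of erythroid genes in 5. The macrophage genes C1qa, C1qb and C1qc reached that count in 1 member. In all, 9 members met at least 1 of these conditions, which did not cover dendritic cell genes. At least 5 UMIs of Cd209a, a gene of the dendritic cell list, were held by 19 members, 12 of them in the class II range described below. The 5 members richest in Hbb-bs held 78.6% of all Hbb-bs UMIs of the group. Of the 7 T cell markers, 3 were at 0 UMIs in monocytes and the list summed to 4.07 CPM in monocytes and 107 CPM in other TBM cells. The neutrophil granule gene Camp was at 651 CPM in monocytes, a median of 4 UMIs per cell, against 793 CPM in the globin-rich cells and 57428 CPM in cells rich in S100a8 and S100a9, so its level in monocytes was no higher than in a cell type that should lack it.

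Monocytes were compared with the other 3958 TBM cells to show which genes set them apart. Among 11458 genes with at least 20 UMIs over both groups, 1724 were at least 2-fold higher in monocytes (15%) and 1652 at least 2-fold lower (14.4%), with a median log2 ratio over all genes of 0.21. With a median-based size factor in place of total UMIs, the median moved by -0.51 and the split became 851 higher and 2614 lower. The distance of a gene or list from the all-gene median does not depend on that scaling. List medians below are to be read against 0.21 with total UMIs and -0.30 with the size factor. Counts of list genes are to be read against the 15% higher and 14.4% lower over all genes.

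Among genes with at least 200 UMIs over both groups, the limit used to name the highest and lowest genes, the highest ratio belonged to Ms4a8a, a member of the membrane-spanning 4-domain family on chr19:11067471-11081102 of GRCm38, minus strand. It was at 91.5 CPM in monocytes and 2.90 CPM in other TBM cells, a log2 ratio of 4.98 (4.55 to 5.42). Galnt9, which encodes an enzyme that starts O-linked glycans, followed with 79.2 CPM in monocytes and 2.61 CPM in other TBM cells, a ratio of 4.92. The interferon-inducible genes Ifi211 and Ifi204 were at 74.2 and 155 CPM in monocytes, against 3.05 and 9.26 CPM in other TBM cells. The C-type lectin receptor genes Clec4a1 and Clec4a3, whose sequences are close to each other, had ratios of 4.14 and 4.13.

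The remaining genes among the 15 highest were Pid1, Mfsd7a, Cd302, Cd300lg, Mcub, Cx3cr1, S100a4, Stxbp6 and Ptpro, with log2 ratios from 3.90 (Ptpro) to 4.39 (Pid1). Cx3cr1, the fractalkine receptor, was at 129 CPM in monocytes and 7.93 CPM in other TBM cells. S100a4, a calcium-binding protein linked to cell motility, was the most abundant of the 15, with 1112 CPM in monocytes and 70.4 CPM in other TBM cells. It was detected in 319 of the 332 monocytes, with a median of 7 and a maximum of 24 UMIs, so its level did not rest on a few cells.

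**Figure D2:**
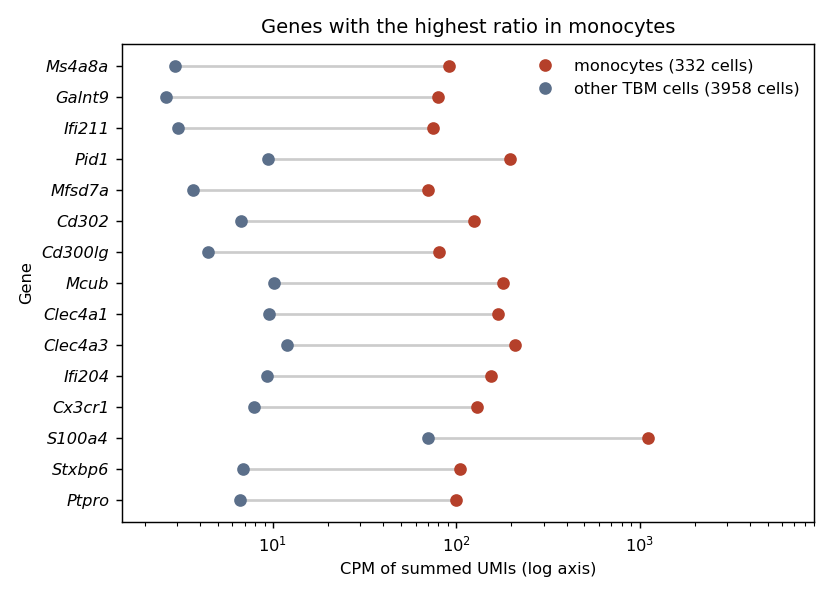
CPM of summed UMIs (log axis) of the 15 genes with the highest ratio, among those with at least 200 UMIs, in monocytes (red, 332 cells) over other TBM cells (blue, 3958 cells), with the genes of the rule left out. Ms4a8a stood at 91.5 CPM in monocytes and 2.90 CPM in other TBM cells, and S100a4 at 1112 and 70.4 CPM in the same order.

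The 12 lowest ratios were of genes of B cells, neutrophils and other marrow cells. Ebf1, the transcription factor that commits cells to the B lineage, had 9 UMIs in all monocytes, 4.07 CPM, against 504 CPM in other TBM cells, a ratio of -6.95 (-8.08 to -6.02). Ms4a1, which encodes CD20, was at 2.72 CPM in monocytes and 183 CPM in other TBM cells. Gm30211, Slc40a1, Orm1, Itgb2l, Syne1, Igll1, Fcer2a, 4930438A08Rik, Il1f9 and Snn had 1 or 2 UMIs each in all monocytes, too few to order them. Slc40a1, with 1 UMI in monocytes and 40.6 CPM in other TBM cells, had a ratio of -6.49 with a counting interval of -11.79 to -4.01.

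The 250 bases before the transcription starts of 4 genes that mark the group are shown because PU.1, the product of Spi1, is a main transcription factor of this lineage and its core letters can be looked for in them. The sequences are RefSeq's, on GRCm38.p6, and capitals mark the core GAGGAA or its reverse complement TTCCTC. F13a1 and Ly6c2 are shown at the first of 2 starts in the table, and positions are chr13:37050245-37050494 (minus strand) for F13a1, chr15:75111972-75112221 (minus) for Ly6c2, chr6:122921598-122921847 (plus) for Clec4a1 and chr19:11469118-11469367 (plus) for Ms4a6c.
F13a1: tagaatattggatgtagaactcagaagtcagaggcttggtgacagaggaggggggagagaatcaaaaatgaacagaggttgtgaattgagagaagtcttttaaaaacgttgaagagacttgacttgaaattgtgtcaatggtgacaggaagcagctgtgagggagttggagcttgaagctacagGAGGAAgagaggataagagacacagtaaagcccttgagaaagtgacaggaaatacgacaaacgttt
Ly6c2: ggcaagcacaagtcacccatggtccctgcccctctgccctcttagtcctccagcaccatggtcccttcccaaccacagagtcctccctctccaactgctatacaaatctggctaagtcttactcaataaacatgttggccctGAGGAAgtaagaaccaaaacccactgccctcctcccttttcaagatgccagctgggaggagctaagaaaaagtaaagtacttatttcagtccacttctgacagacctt
Clec4a1: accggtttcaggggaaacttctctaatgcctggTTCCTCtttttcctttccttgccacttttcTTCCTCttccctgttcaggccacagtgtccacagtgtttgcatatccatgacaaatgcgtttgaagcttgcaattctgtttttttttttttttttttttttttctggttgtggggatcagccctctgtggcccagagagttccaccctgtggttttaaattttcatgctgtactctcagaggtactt
Ms4a6c: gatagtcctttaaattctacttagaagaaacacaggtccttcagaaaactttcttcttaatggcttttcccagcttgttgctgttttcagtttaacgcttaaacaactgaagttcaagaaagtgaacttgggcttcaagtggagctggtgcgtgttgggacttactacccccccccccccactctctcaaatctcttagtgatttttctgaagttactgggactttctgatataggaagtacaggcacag
F13a1 held 1 match, 66 bases before its start, and Ly6c2 held 1, 108 bases before its start. Clec4a1 held 2 matches, 217 and 187 bases before its start, and Ms4a6c held none. The windows of Ccr2, Clec4a3, Cx3cr1, Cd209a, Chil3, Ms4a8a and Pid1 were also extracted, are not printed, and held no match. On both strands, these letters occurred in 6252 of 27025 promoter windows of the same length (23.1%), in 3 of the 13 matched genes among the 15 highest and in 5 of the 15 matched genes of the classical monocyte list. The C/EBP palindrome TTGNNCAA occurred in 5.74% of all windows and in none of either set. A match describes letters and not binding.

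Genes that mark classical monocytes were mostly high. Of 17 measured, 14 were at least 2-fold higher in monocytes and 2 at least 2-fold lower. Their median ratio was 2.49 against 0.21 over all genes. The size factor left 11 higher and 2 lower. Lyz2, the lysozyme gene of myeloid cells, was at 28302 CPM in monocytes and 6276 CPM in other TBM cells, and single monocytes held 0 to 511 UMIs with a median of 188. Ly6c2, the gene of the Ly-6C antigen, was at 2872 CPM in monocytes and 1132 CPM in other TBM cells, with 0 to 112 UMIs per monocyte and a median of 13. How reads were split between near-identical genes such as Ly6c1 and Ly6c2 or Lyz1 and Lyz2 is not given in the sources used here.

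Ms4a6c was at 1044 CPM in monocytes and 87.1 CPM in other TBM cells, and Mpeg1, which encodes the pore-forming perforin-2, at 318 and 31.3 CPM in the same groups. The 2 lower genes of the list were Chil3, a chitinase-like gene, with 689 CPM in monocytes and 2075 CPM in other TBM cells, and Thbs1, with 4 UMIs in all monocytes. Vcan, often used as a monocyte marker in human blood, had 9 UMIs in all monocytes and fell under the count minimum.

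The list of non-classical monocyte genes was mixed, with 6 of 14 at least 2-fold higher, 3 lower and a median of 0.79. These counts became 5 and 3 with the size factor. Cd36, among the 3 lower genes, was at 6.34 CPM in monocytes and 35.4 CPM in other TBM cells, a ratio of -2.48. Cebpb was at 605 CPM in monocytes and 158 CPM in other TBM cells. Nr4a1 was at 38.0 CPM in monocytes and 16.9 CPM in other TBM cells, and Treml4 rested on 20 UMIs in monocytes. After thinning, a UMI of Ace, Treml4, Cd300e, Eno3 or Adgre4 was found in 10.6% of monocytes (7.52 to 14.5%), in 2.06% of other TBM cells and in 0.538% of globin-rich cells.

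Among myeloid transcription factors, 11 of 23 were at least 2-fold higher in monocytes and 3 lower, with a median of 0.96. These counts became 9 and 3 with the size factor. Batf3, needed for one type of conventional dendritic cell, was at 37.1 CPM in monocytes and 1.62 CPM in other TBM cells. Klf4, needed for Ly-6C high monocytes, was at 389.8 CPM in monocytes and 41.9 CPM in other TBM cells. Cebpe, a factor of granulocyte maturation, was at 29.0 CPM in monocytes and 307 CPM in other TBM cells. Gfi1, a repressor that favours granulocytes, had 0 UMIs in monocytes and 13.1 CPM in other TBM cells. Set to a floor of 3 counts in the monocyte sum, it was 9.68-fold lower, a log2 ratio of -3.27 with an upper limit of -2.97. Spi1, which encodes PU.1, was at 652 CPM in monocytes and 334 CPM in other TBM cells.

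Genes for sensing and uptake were also high in monocytes. Of 10 genes of Fc receptors and their adaptors, 8 were at least 2-fold higher and none lower, with a median of 1.36, and Fcgr1, the high-affinity IgG receptor, was at 57.9 CPM in monocytes and 2.81 CPM in other TBM cells. With the size factor, 2 of these 10 passed 2-fold. Of 21 pattern recognition genes, 14 were higher and 3 lower, with a median of 1.66. The size factor left 11 higher and 3 lower. Msr1, a scavenger receptor, was at 27.2 CPM in monocytes and 0.738 CPM in other TBM cells, and Tlr2, a receptor for bacterial lipoproteins, at 51.6 and 7.88 CPM in the same groups. Cd36, another scavenger receptor, was the reverse, with 6.34 CPM in monocytes and 35.4 CPM in other TBM cells.

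Of 12 complement genes, 7 were at least 2-fold higher and 1 lower, with a median of 1.15, and with the size factor 4 were higher and 1 lower, with a median of 0.65. Cfp, which encodes properdin, was at 357 CPM in monocytes and 70.2 CPM in other TBM cells. C5ar1, the C5a receptor, was at 5.89 CPM in monocytes and 82.2 CPM in other TBM cells. C1qb had a ratio of 1.46 that rested on 1 C1q-rich cell, and without the 9 cells with transcripts of other types it was -1.37.

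The chemokine receptor and adhesion genes held 7 higher and 2 lower of 19, with a median of 0.52, and with the size factor 4 higher and 4 lower, with a median of 0.01 against -0.30 over all genes. Itgb7, an integrin chain, was at 525 CPM in monocytes and 57.4 CPM in other TBM cells, and Selplg, the P-selectin ligand, at 543 and 154 CPM in the same groups. Cxcr2, the receptor that draws neutrophils, had 2 UMIs in all monocytes and 39.4 CPM in other TBM cells, a ratio of -5.44 (-8.49 to -3.59). S1pr1, an exit receptor of lymphocytes, had 0 UMIs in monocytes and 20.2 CPM in other TBM cells. Set to the same floor, it was 14.9-fold lower, a log2 ratio of -3.90 with an upper limit of -3.59.

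Of 21 cytokine and growth factor receptors, 14 were at least 2-fold higher in monocytes and 2 lower, with a median of 1.57. These counts became 11 and 2 with the size factor. Il6ra was at 101 CPM in monocytes and 15.4 CPM in other TBM cells, and Csf2ra, a chain of the GM-CSF receptor, at 357 and 93.1 CPM in the same groups. Il1r2, a decoy receptor for interleukin-1, was at 2.26 CPM in monocytes and 16.9 CPM in other TBM cells. Of 18 cytokines and chemokines, 10 were higher and 6 lower, with a median of 1.13. The size factor left 8 higher and 7 lower, with a median of 0.63. Pf4, among the 6 lower genes, had 0 UMIs in monocytes and 21.4 CPM in other TBM cells. Ccl6 was at 1430 CPM in monocytes and 348 CPM in other TBM cells, Ccl9 at 828 and 69.8 CPM, and Ccl2, the ligand of the Ccr2 receptor, at 51.6 and 3.10 CPM in the same order of groups.

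Of the functional lists, cell type markers aside, the lysosomal genes had the largest share of high members. Of 21, 19 were at least 2-fold higher in monocytes and 1 lower, with a median of 1.86, and with the size factor 16 passed 2-fold. Psap, which encodes the activators of lipid breakdown, was at 4101 CPM in monocytes and 493 CPM in other TBM cells. The protease gene Ctss was at 1300 CPM in monocytes and 142 CPM in other TBM cells, and Cd68 at 356 and 24.9 CPM in the same groups. The exception was Cd63, a tetraspanin of granules, with 9.51 CPM in monocytes and 334 CPM in other TBM cells.

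Of 20 interferon response genes, 15 were at least 2-fold higher in monocytes and 1 lower, with a median of 1.73. These counts became 11 and 2 with the size factor. Ifi27l2a was the most abundant, with 1992 CPM in monocytes and 265 CPM in other TBM cells. Ifit3 was at 31.2 CPM in monocytes and 2.76 CPM in other TBM cells, and 24 of the 332 monocytes held a UMI of it. Isg20 was the exception, with 29.0 CPM in monocytes and 105 CPM in other TBM cells.

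Class II genes were split. Of 11, 4 were at least 2-fold higher and 2 lower, with a median of 0.70 that became -0.30 when each cell was given equal weight. Cd209a was at 118 CPM in monocytes and 9.06 CPM in other TBM cells, and Cd86, a co-stimulatory ligand, at 33.0 and 3.99 CPM in the same groups. The 2 lower genes were H2-DMb2 and H2-Oa. H2-DMb2 was at 13.1 CPM in monocytes and 116 CPM in other TBM cells, and H2-Oa at 9.51 and 37.9 CPM. Cd74, the invariant chain, was at 3504 CPM in monocytes and 2708 CPM in other TBM cells, a ratio of 0.37 that became -0.14 with the size factor. Of 5 measured conventional dendritic cell markers, all were at least 2-fold higher in monocytes, with a summed level of 226 CPM in monocytes and 25.01 CPM in other TBM cells over the list, and Xcr1 was at 0 in monocytes. The part of dendritic cells in these levels was not tested.

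Of 10 macrophage markers, 7 were higher and 2 lower, with a median of 1.14, led by Mrc1 and Adgre1 and with C1qb and C1qc among the 7, whose UMIs came to 86.5% and 95.7% from 1 monocyte. Adgre1, which encodes F4/80, was at 58.9 CPM in monocytes and 5.42 CPM in other TBM cells. Of 10 genes of the S100 and annexin families without S100a8 and S100a9, 4 were higher and 1 lower, with a median of 0.81. Anxa1 was the lower one, with 339 CPM in monocytes and 1060 CPM in other TBM cells. Of 6 NADPH oxidase genes, 1 was at least 2-fold higher and none lower, with a median of 0.60, and with the size factor none was higher and 1 lower. Of 8 heme and iron genes, 4 were higher and 3 lower, with a median of 0.39 that became -0.12 with the size factor. Hmox1, which breaks down heme, was at 53.4 CPM in monocytes and 15.2 CPM in other TBM cells. Tfrc, among the lower genes, was at 8.15 CPM in monocytes and 47.9 CPM in other TBM cells.

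Cell cycle genes were not high as a group. None of 20 S phase genes was at least 2-fold higher and 3 were lower, with a median of -0.67, and of 20 G2/M genes none passed 2-fold in either direction, with a median of -0.19. With the size factor, 17 of the S phase genes were at least 2-fold lower. Rrm2, a subunit of ribonucleotide reductase, was at 136 CPM in monocytes and 440.0 CPM in other TBM cells. After thinning, a UMI of Mki67 or Top2a was found in 19.1% of monocytes (15.04 to 23.8%), 25.5% of other TBM cells (23.9 to 27.2%), 13.6% of cells rich in S100a8 and S100a9 and 60.5% of globin-rich cells. At this depth of 2000 UMIs, 1288 of the other TBM cells were left out as too shallow, against 3 monocytes. Thinned to 1000 UMIs, the shares were 12.05% of monocytes and 12.8% of other TBM cells, and without thinning 26.2% and 26.7%.

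**Figure D3:**
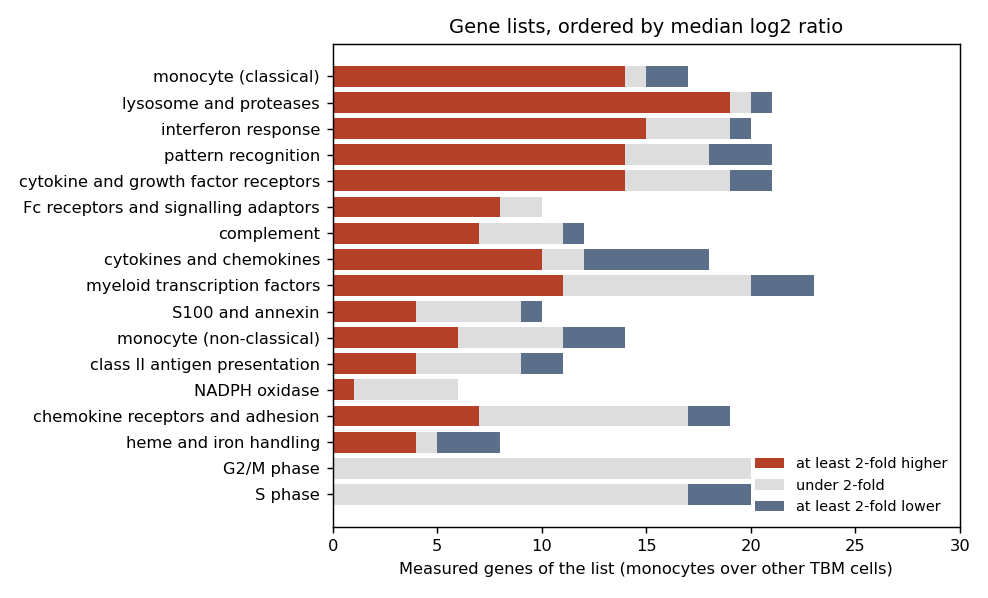
Measured genes of each list that were at least 2-fold higher (red), under 2-fold (grey) or at least 2-fold lower (blue) in monocytes than in other TBM cells, with lists ordered by median log2 ratio from 2.49 at the top to -0.67 at the bottom. The lysosome list had 19 of 21 genes higher and no S phase gene was higher; the heme and iron list's median of 0.39 became -0.12 with the size factor, and the class II list's 0.70 became -0.30 with equal weight per cell.

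The most abundant myeloid cells of the library, 1594 cells with at least 10% of their UMIs from S100a8 and S100a9, served as a second comparison. Against them, 4619 of 9373 genes were at least 2-fold higher in monocytes (49.3%) and 768 at least 2-fold lower (8.19%), with a median of 0.98. With the size factor the counts were 1503 higher and 1852 lower. S100a8 and S100a9 made up 0.392% of all UMIs in monocytes and 32.4% in the S100-rich cells, and the rule used both genes.

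F13a1 was at 617 CPM in monocytes and 5.87 CPM in S100-rich cells, a ratio of 6.72 (6.30 to 7.17). Ms4a6c was at 1044 CPM in monocytes and 14.2 CPM in S100-rich cells, and its family member Ms4a6b at 276 and 3.75 CPM in the same groups. The others among the 8 highest with at least 100 UMIs over both groups were Capn2, Emp1, Ms4a8a, Ifi211 and Galnt9. Ly6c2 was much less distinct, with 2872 CPM in monocytes and 1342 CPM in S100-rich cells. After thinning to 2000 UMIs it was present in 85.7% of monocytes and 89.4% of S100-rich cells. That depth left out 3 monocytes and 452 S100-rich cells, and the order depended on it. Thinned to 1000 UMIs, the shares were 73.5% and 65.9% in the same order of groups, and without thinning 93.1% and 84.3%. Spi1 was at 652 CPM in monocytes and 569 CPM in S100-rich cells.

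The 6 lowest against the S100-rich cells were Orm1, Itgb2l, Syne1, Slc40a1, 4930438A08Rik and Il1f9, with 1 or 2 UMIs each in monocytes. All 10 measured neutrophil markers other than S100a8 and S100a9 were at least 2-fold lower in monocytes, with a median of -6.23. Both groups were cut on those 2 genes, which are neutrophil markers, so this result is not independent of the choice of cells. Ltf, which encodes lactoferrin, was at 64.7 CPM in monocytes and 6462 CPM in S100-rich cells. Class II genes were high in 10 of 11 cases, with a median of 3.60 against 0.98 over all genes, and interferon response genes in 19 of 20, with a median of 2.69. NADPH oxidase genes had a median of -0.40, with none of 6 higher and 1 lower.

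The 31 TBM cells with at least 2 UMIs of Siglech, a marker of plasmacytoid dendritic cells that the rule kept out, were compared as well. Of 7199 genes, 1104 were at least 2-fold higher in monocytes (15.3%) and 1026 lower (14.3%). Lyz2 was at 28302 CPM in monocytes and 767 CPM in Siglech cells, and F13a1 was found as 1 UMI in the Siglech cells. Cox6a2 had 1 UMI in monocytes and 308 UMIs in Siglech cells, a ratio of -11.78 (-17.09 to -9.30).

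In the LK library the same rule found 11 of 3464 cells (0.318%), and in LSK 7 of 1070 (0.654%). At least 4 UMIs of the counted genes were held by 142 LK cells, but 131 of these had 10 or more UMIs of Elane. Those 142 cells had a median of 102.5 UMIs of Elane, 130 of them held F13a1 and 5 held Fn1. The 11 LK cells had a median of 17245 UMIs, against 5668 in the TBM monocytes, and the sort and the library cannot be told apart.

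Against the 11 LK cells, 1487 of 7077 genes were at least 2-fold higher in TBM monocytes (21%) and 1279 lower (18.1%), and with the size factor 2458 were higher and 588 lower. Lyz2 was at 28302 CPM in TBM monocytes and 207 CPM in the LK cells, a ratio of 7.10 (6.65 to 7.58). Ly6c2 was at 2872 CPM in TBM monocytes and 31.0 CPM in the LK cells. Cd74 and Lgals3 had 0 UMIs in the LK cells and were 226-fold and 187-fold higher in TBM monocytes against a floor of 3 counts. S100a4, Apoe and H2-Aa had 1 UMI each in the LK cells, and the globin genes Hbb-bs and Hba-a1 completed the 8 highest with at least 100 UMIs. For Hbb-bs, 78.6% of the UMIs of TBM monocytes lay in 5 cells.

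The progenitor granule genes were the other way round. Mpo was at 54.8 CPM in TBM monocytes and 4476 CPM in the LK cells, a ratio of -6.35 (-6.64 to -6.08), and Ctsg at 73.8 and 2014 CPM in the same groups. Phgdh, Igfbp4, Mif and Cdca7 were the remaining genes among the 6 lowest. Of 20 S phase genes, 17 were at least 2-fold lower in TBM monocytes and none higher, with a median of -1.90, whereas F13a1 was at 617 CPM in TBM monocytes and 238 CPM in the LK cells. Irf8, a factor of monocyte commitment, was at 502 CPM in TBM monocytes and 971 CPM in the LK cells.

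Within the monocytes, 4 overlapping ranges were cut from summed UMIs of a few genes each, and 182 of the 332 cells (54.8%) lay in none. A range is a stretch of a score and not a cell type. The non-classical range (at least 3 UMIs of Ace, Treml4, Cd300e, Eno3 and Adgre4) held 13 cells, of which 5 sat at the minimum and 6 more cells lay 1 UMI below it. The class II range (at least 10 UMIs of Cd74, H2-Aa, H2-Ab1 and H2-Eb1) held 60 cells, the dividing range (at least 3 UMIs of Mki67, Top2a, Cenpf, Hmmr and Tpx2) 70 and the granule range (at least 5 UMIs of Mpo, Ctsg and Prtn3) 41. Since no UMI count was thinned for the cut, depth enters: cells of the dividing and granule ranges had medians of 10917 and 10477 UMIs, against 5668 over all monocytes.

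Cells of the non-classical range were low in Ly6c2, with 574 CPM in the range and 2934 CPM in the other monocytes, a ratio of -2.35 (-2.89 to -1.86). F13a1 was at 104 CPM in the range and 630.3 CPM in the other monocytes. Lyz2 did not separate them, with 27756 CPM in the range and 28316 CPM in the other monocytes.

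Of 5436 genes measured, 743 were at least 2-fold higher in the non-classical range (13.7%) and 654 lower (12%). Each of the other ranges had 7066 genes measured from the same 332 cells, because some genes at 0 in these 13 cells were left out. The shares are therefore not comparable between this range and the others. Fcgr4, an Fc receptor typical of non-classical monocytes, was at 261 CPM in the range and 13.5 CPM in the other monocytes, a ratio of 4.27 (3.27 to 5.22). Nr4a1 was at 209 CPM in the range and 33.5 CPM in the other monocytes, and Cx3cr1 at 348 and 123 CPM in the same groups. Ear2, Gngt2, Cd300c2, Metrnl, Apoe, H2-Eb1, H2-Ab1 and Retnlg were the 8 highest with at least 100 UMIs, and 78.7% of the Retnlg UMIs of the range came from 1 cell. Of the 13 cells, 5 (38.5%) also lay in the class II range, whose cut uses H2-Eb1 and H2-Ab1. Gngt2 was found in all 13 cells, with 1670 CPM in the range and 235 CPM in the other monocytes. Stmn1, Prtn3, Cenpa, Bub3 and Ass1 were among the 6 lowest, with 1 or 2 UMIs each in the range.

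Of 7066 genes, 353 were at least 2-fold higher in the class II range (5%) and 680 lower (9.62%). Ciita, the master regulator of class II genes, had 41 UMIs in 26 cells of the range and 1 UMI in the other monocytes, a ratio of 7.70 (5.15 to 13.04). H2-DMb1, which helps to load class II molecules, was at 705 CPM in the range and 85.6 CPM in the other monocytes, and Batf3 at 132 and 18.4 CPM in the same groups. Of 7 class II list genes not used for the cut, 6 were at least 2-fold higher, with a median of 1.93.

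Cd209a was at 444 CPM in the class II range and 53.6 CPM in the other monocytes, and Apoe, a lipid carrier gene of macrophages, at 3761 and 679 CPM in the same groups. Ckb, Tmem176a, Tmem176b, Cd7 and Isg15 completed the 8 highest with at least 100 UMIs, and 48.0% of the Isg15 UMIs of the range came from 1 cell. Chil3, F10, Pbk, Slpi, Ctsg and Cxcr4 were the 6 lowest. Chil3 was at 90.9 CPM in the range and 807 CPM in the other monocytes, and Ly6c2 at 1077 and 3225 CPM in the same groups.

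Both high and low Lyz2 levels occurred inside the class II range. The 12 cells with at least 5 UMIs of Cd209a had a median of 1126 CPM of Lyz2 per cell, and 8 of them were under 5000 CPM. The 48 cells with fewer Cd209a UMIs had a median of 33714 CPM, with 8 under 5000 CPM, and the 272 monocytes outside the range had a median of 32985 CPM, with 12 under 5000 CPM. In the same 3 groups Flt3, a receptor of dendritic cell development, was at 110 CPM, 22.0 CPM and 8.67 CPM, and Ly6c2 at 232, 1358 and 3225 CPM. The dendritic cell marker Clec10a was at 276, 77.1 and 31.4 CPM in that order.

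The dividing range held 21.1% of the monocytes (16.8 to 25.9%). Of 7066 genes, 724 were at least 2-fold higher in the range (10.2%) and 548 lower (7.76%). Prc1, Plk1, Spc25, Pbk, Nusap1, Aurka, Ccnb1 and H2afx, all genes of mitosis or chromatin, were the 8 highest with at least 100 UMIs, and H2afx was at 1153 CPM in the range and 42.0 CPM in the other monocytes. Of 20 S phase genes, 17 were at least 2-fold higher in the range, with a median of 1.89.

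Monocyte genes did not move together in the dividing range. Ly6c2 was at 3549 CPM in the range and 2503 CPM in the other monocytes, and F13a1 at 679 and 583 CPM in the same groups. Lyz2 was at 16935 CPM in the range and 34496 CPM in the other monocytes, Cx3cr1 at 62.9 and 165 CPM, and Apoe at 53.9 and 1802 CPM in that order. Of 19 interferon response genes, 14 were at least 2-fold lower in the range and none higher, with a median of -1.81. Ifit3 had 0 UMIs there, 12.5-fold lower when set to the floor of 3 counts. Apoe, Rtp4, Abi3, Tcp11l2, Sirpb1c and Oasl2 were the 6 lowest. All 8 erythroid markers were at least 2-fold higher in the range, but without the 9 cells with transcripts of other types Hbb-bs was at 1034 CPM in the range and 1172 CPM in the other monocytes.

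The granule range shared 26 of its 41 cells with the dividing range, 63.4% of the granule range and 37.1% of the dividing range. Of 7066 genes, 432 were at least 2-fold higher in the granule range (6.11%) and 730 lower (10.3%), and with the size factor 301 were higher and 936 lower. AI506816, Mcm6, Mcm3, Cxcr4, Mad2l1, Tuba4a, Lig1 and Dtymk were the 8 highest with at least 100 UMIs, and 18 of 20 S phase genes were at least 2-fold higher, with a median of 1.47. Cxcr4, the receptor that holds cells in the marrow, was at 110 CPM in the range and 31.9 CPM in the other monocytes. Every cell of the range held Ly6c2, with 20 to 112 UMIs and a median of 49, and Ly6c2 was at 4710.2 CPM in the range and 2394 CPM in the other monocytes.

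Several class II genes and Apoe were low in the granule range. Of 11 class II list genes, 6 were at least 2-fold lower and none higher, with a median of -1.86, and H2-DMa was the most abundant, at 268 CPM in the range and 388 CPM in the other monocytes. Cd74 was at 68.0 CPM in the range and 4397 CPM in the other monocytes, a ratio of -6.01 (-6.57 to -5.51), and H2-Aa had 5 UMIs in 41 cells. Apoe was at 26.3 CPM in the range and 1487 CPM in the other monocytes. H2-Ab1, H2-Eb1 and Rtp4 were the others among the 6 lowest, with 12, 5 and 1 UMIs in the range. F13a1 was at 724 CPM in the range and 589 CPM in the other monocytes, and Ms4a6c at 961 and 1066 CPM in the same groups.

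The 182 monocytes in none of the ranges had the highest Lyz2, with 39590 CPM, and the highest Chil3, with 1069.8 CPM, of the 5 sets. Their F13a1, at 678 CPM, lay close to the 679 CPM of the dividing range, and their Ly6c2, at 2737 CPM, lay between the class II and the dividing range. Ms4a6c varied least of the genes shown, from 961 CPM in the granule range to 1113 CPM in these cells.

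**Figure D4:**
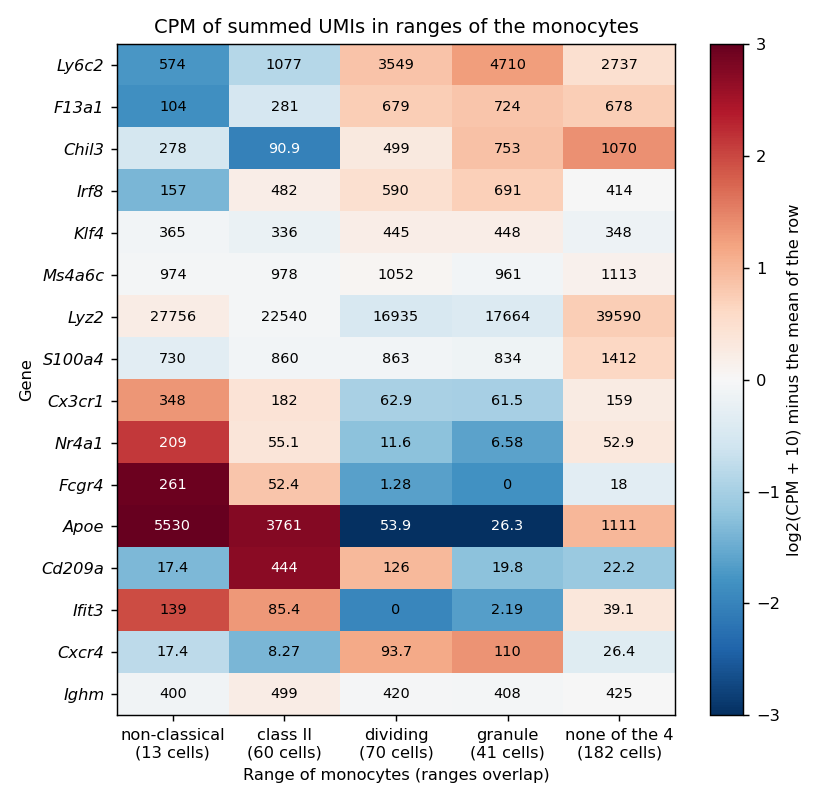
CPM of summed UMIs of selected genes (rows, printed in each field) in the 4 ranges of monocytes and in the monocytes in none of them (columns); colour is log2 of CPM plus 10 minus the mean of the row. Ly6c2 was at 574 CPM in the non-classical range and 4710.2 CPM in the granule range, and Apoe at 5530.2 and 26.3 CPM in the same ranges.

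Ighm, the immunoglobulin mu constant region gene on chr12:113418558-113422730 of GRCm38, was found in 298 of the 332 monocytes, although no monocyte held a UMI of the B cell gene Cd79a, which the rule excluded. It was at 430.1 CPM in monocytes (403 to 458) and no cell held more than 1.47% of its UMIs. Igkc, the kappa light chain gene, was at 156 CPM in monocytes, so Ighm stood at 2.75 UMIs per UMI of Igkc (2.43 to 3.12). The ratio was 0.118 in S100-rich cells, 0.184 in globin-rich cells and 0.214 in the 1559 TBM cells with a UMI of Cd79a, and 7.47 in Siglech cells. The sources of these transcripts were not tested.

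After thinning, Ighm was present in 61.1% of monocytes (55.6 to 66.4%) and 5.91% of globin-rich cells (3.74 to 8.82%), and Igkc in 28.3% of monocytes and 32.8% of globin-rich cells. Ighd, the delta constant region gene next to Ighm, was at 0.905 CPM in monocytes and 251 CPM in the Cd79a cells. In LK, where Igkc was at 0.520 CPM over all cells, the 131 cells with the monocyte genes and 10 or more UMIs of Elane had 282 CPM of Ighm (262 to 302), against 109 CPM over all LK cells. Across the ranges of TBM monocytes Ighm lay between 400.0 CPM in the non-classical and 499 CPM in the class II range.

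**Figure D5:**
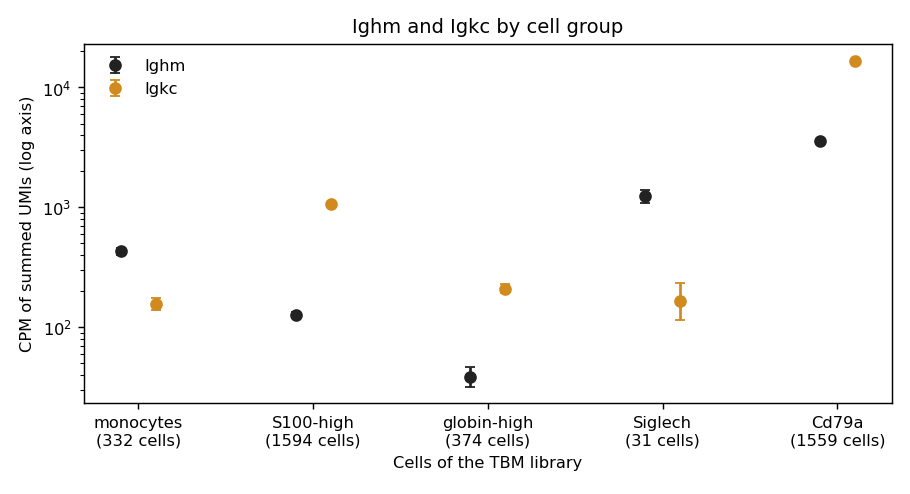
CPM of summed UMIs (log axis) of Ighm (black) and Igkc (orange) in monocytes and 4 other sets of TBM cells; bars are exact 95% Poisson intervals and cover counting error only. Ighm lay above Igkc in monocytes (430.1 and 156 CPM) and in Siglech cells, and below it in the other 3 sets.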

How the data were processed

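Gene expression was measured in single mouse marrow cells with the 10x Genomics Single Cell 3' kit, version 2, per the labels' protocols. The deposited values are raw UMI counts per gene and barcode, whole numbers with no normalization. Per the submitters' processing notes, Cell Ranger 4.0.0 was used with mm10, and the sources used here do not give the annotation or how cells were called.

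Counts of 32285 genes were read with Python 3.11.15, numpy 2.4.6, scipy 1.17.1 and pandas 2.3.3. Cells were selected as described, and UMIs were summed over each group and scaled to CPM by the group's total. Shares of cells with a gene were taken after thinning each cell to 2000 UMIs. Cells with fewer UMIs were left out of these shares: 3 monocytes, 1288 other TBM cells, 452 S100-rich cells, 756 Cd79a cells and 2 globin-rich cells. Shares have exact Clopper-Pearson 95% intervals, levels exact Poisson intervals, and log2 ratios the exact interval of a ratio of counts. These cover counting error only, and a gene at 0 was set to a floor of 3 counts. Genes with at least 20 UMIs over both groups were measured, except for some genes at 0 in either group, and 2-fold was the limit for a call. Doublets were called with Scrublet in scanpy 1.11.5 and kept. The ratio calculation was tested on simulated counts. Coordinates come from GENCODE on GRCm38, which shares mm10's coordinates, and promoters from RefSeq.

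The genes named were the 15 highest and 12 lowest ratios with at least 200 UMIs, up to 5 genes per list with the largest absolute ratio and at least 50 UMIs plus the most abundant, and the 8 highest and 6 lowest per further comparison with at least 100 UMIs; genes of a rule, ribosomal and mitochondrial genes and immunoglobulin segments were left out. Further genes, among them Ighm, Igkc, Chil3, Thbs1, Isg20, Adgre1, Irf8, Fcgr4 and Ciita, were named after their values were seen, and so were the splits by Cd209a and Lyz2. The members and the gene lists were chosen with earlier results of these data known. Alternatives covered the limits of the rule, the scaling, the count minimum, doublets and thinning. A few genes that the naming rule picked are not reported here.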

Additional observations from a re-analysis of the deposited data

How the results depend on the processing

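The share of monocytes in TBM was 7.74%, and became 6.95% with a minimum of 6 UMIs of the counted genes and 8.74% with up to 1 UMI of Cd79a, an alternative chosen after seeing the data; across the limits of the rule the group held 298 to 375 cells. The 1724 genes higher and 1652 lower than in other TBM cells became 851 and 2614 with the size factor, 1022 higher with totals without S100a8, S100a9, globin and immunoglobulin, and 1055 lower with at least 100 UMIs over both groups. The 4619 genes higher than in S100-rich cells became 1503, 2664 and 2600 under the same 3 settings. The 1487 genes higher than in the LK cells became 2458 with the size factor and 732 with at least 100 UMIs, where fewer genes enter. The 743 genes higher in the non-classical range became 1221 with its minimum raised to 5 UMIs, which leaves 4 cells. Thinned shares follow depth: Mki67 or Top2a was found in 12.05% of monocytes at 1000 UMIs and 26.2% without thinning, the non-classical genes in 4.82% and 16.6%, and Cd74 in 30.1% and 63.6%. For 116 named genes, 1218 of 1508 alternative ratios lay within the main interval and 289 outside it without a called ratio changing sign; 1, of C1qb, reversed to -1.37 without the 9 cells with transcripts of other types, also chosen after seeing the data. In the class II range, Isg15 had a ratio of 1.25 without those cells, against 2.04 with them. No paired analysis was possible because each group has 1 library and the labels carry no numbers that pair samples. With 1 library, differences between mice, sorts and runs cannot be told apart from differences between groups, and a gene under 3 counts in the monocyte sum, 1.36 CPM, cannot be told from absent.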
